A study of Mus musculus with 4 samples.

Results

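Cytosolic nucleic acid sensors were examined with their adaptors, kinases and enzymes that limit their ligands, in mouse bone marrow stromal cells depleted of ZBP1. ZBP1 is itself a sensor of Z-form nucleic acids. The members were chosen by name as 9 genes: *Mb21d1* (cGAS), *Tmem173* (STING), *Ddx58* (RIG-I), *Ifih1* (MDA5), *Mavs*, *Tbk1*, *Ikbke*, *Trex1* and *Samhd1*. All 9 were found among the 24346 genes of the deposited table, and all 9 were among the 11959 genes whose FPKM averaged 1 or more. FPKM is a fragment count scaled by transcript length and by the mapped reads of the sample, which helps to compare levels between genes and between samples. It does not correct for a change in which transcripts make up the RNA.

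Cells that sense foreign or misplaced DNA in the cytosol do so mainly through cGAS, which makes the messenger cGAMP, and cGAMP activates STING on the endoplasmic reticulum. Double-stranded RNA is sensed by RIG-I and MDA5, which signal through MAVS on mitochondria. Both routes converge on the related kinases TBK1 and IKKε (encoded by *Ikbke*), which phosphorylate IRF3 and IRF7 and so induce type I interferon. TREX1, a DNA exonuclease, and SAMHD1, a dNTP hydrolase, keep the cell's own nucleic acids from triggering these sensors, and loss of either in humans causes an inherited interferon disease.

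RNA-seq was performed on 4 samples of mBMSCs, adherent cells grown from the femoral marrow of C57BL/6 mice aged 3 months. Of these, 2 had been transfected with a scrambled control siRNA (siScr) and 2 with siRNA against ZBP1 (siZBP1), and RNA was taken 72 h later. Which of the study's siRNAs against ZBP1 was used is not stated, nor whether replicates came from separate cultures or animals, so p-values measure only the spread between these samples.

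*Zbp1* was at 86.0 and 62.0 FPKM in the siScr samples and at 11.5 and 11.6 FPKM in the siZBP1 samples, which fits the labels. The sums of FPKM per sample ranged from 477974 to 492166, and the spacing of low values placed the relative depths between 1.00 (siZBP1 replicate 1) and 1.87 (siScr replicate 2), with no read numbers behind them. Stromal markers were uneven. *Col1a1*, *Col1a2* and *Ly6a* were abundant, whereas *Pdgfra*, *Thy1*, *Nt5e* and *Vcam1* had siScr means of only 3.16, 3.28, 4.11 and 5.92 FPKM, and *Lepr* had a mean FPKM under 1. Macrophage markers were abundant too. The summed level of 20 such genes was 12722 to 13691 FPKM in siScr and 17467 to 18201 FPKM in siZBP1 samples. *Lyz2*, with means of 3230 and 5636 FPKM, made up a large part of that difference. By limma 11 of 19 tested genes were higher and 0 lower, where 13.5% of all tested genes were higher and 14.8% lower. Of 12 stromal markers tested, 5 were lower and 1 was higher by limma. The higher one was *Nt5e*, at 2.73 and 5.48 FPKM in siScr and 20.8 and 21.3 FPKM in siZBP1 samples. *Cxcl12* had the lowest log2 fold change (-2.81), with means of 61.5 and 7.89 FPKM. The summed level of the 13 listed was 4708 to 5637 FPKM in siScr and 3244 to 3285 FPKM in siZBP1 samples. *Col1a1*, with means of 2793 and 1160 FPKM, made up most of that difference, while *Col1a2* (1949 and 1820 FPKM) was not called. Neutrophil, lymphocyte, endothelial and erythroid markers summed to at most 9.92 FPKM per list and sample, and the defining genes *Mpo*, *Elane* and *Cd3g* were listed at 0. Others were present, and of these lists only *Cd4* was called. It was at 3.66 and 3.68 FPKM in siScr and higher, at 5.61 and 5.33 FPKM, in siZBP1 samples. *S100a8* reached 4.52 FPKM in siZBP1 replicate 2. The levels below therefore come from RNA of a mixed culture, in which fewer cells of a type and less RNA per cell cannot be told apart. The part of these markers in the results was not tested.

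The RNA sensors RIG-I and MDA5 are themselves interferon-induced genes in textbook accounts, and the interferon-stimulated response element is the sequence through which this occurs. The core of that element, GAAANNGAAA, was searched on both strands of RefSeq promoter windows (GRCm38.p6), each holding 250 bases before and 50 bases after an annotated start. Its letters partly overlap those of composite sites for ETS and interferon regulatory factors. Of 32851 windows, 3.44% held a match. Among the members, 8 had an entry and *Tmem173* had none, and matches were found for *Ddx58* and *Ifih1*, in 2 of their 9 windows (22.2%). Of the pathway genes named below by rule, 18 had an entry and the rest had none. Counted by gene and not by window, 5 of the 18 held a match (27.8%), namely *Oas3*, *Ifit1*, *Cxcl10*, *Tomm70a* and *Apobec3*. The first 3, all well-known interferon-induced genes, were picked after their values were seen and are shown beside the RNA sensors. The *Ifit1* window held another match, from base -85 to -76, that is not shown. Capitals mark the match, and each sequence runs 5′ to 3′ on the strand of its gene.
Ddx58, chr4:40239804-40239833, minus strand, match at bases 3 to 12 after the start: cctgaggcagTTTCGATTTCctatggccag
Ifih1, chr2:62646206-62646235, minus strand, match at bases 33 to 42 after the start: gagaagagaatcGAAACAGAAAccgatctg
Oas3, chr5:120777715-120777744, minus strand, match from base -75 to -66: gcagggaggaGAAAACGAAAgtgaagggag
Ifit1, chr19:34640775-34640804, plus strand, match from base -104 to -95: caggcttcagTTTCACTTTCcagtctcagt
Cxcl10, chr5:92349083-92349112, minus strand, match from base -213 to -204: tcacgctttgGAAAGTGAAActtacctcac

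In siScr cells the members spanned from 4.27 FPKM for *Mb21d1* to 100.9 FPKM for *Samhd1*. The order of the mean levels was *Samhd1*, *Trex1*, *Ddx58*, *Tmem173*, *Tbk1*, *Ifih1*, *Mavs*, *Ikbke* and *Mb21d1*, and of these neighbours only *Tbk1* and *Ifih1* had overlapping replicates. The enzymes that limit ligands thus stood at the top, and the DNA sensor stood at the bottom. Averaged over the 4 samples, *Samhd1* ranked at the 92.7th percentile of tested genes and *Trex1* at the 90.3rd, against the 20.8th for *Mb21d1* and the 46.3rd for *Ikbke*. In siZBP1 cells the order was the same apart from *Tbk1*, whose mean of 28.8 FPKM was next to that of *Tmem173* (28.7 FPKM) with overlapping replicates.

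**Figure D1:**
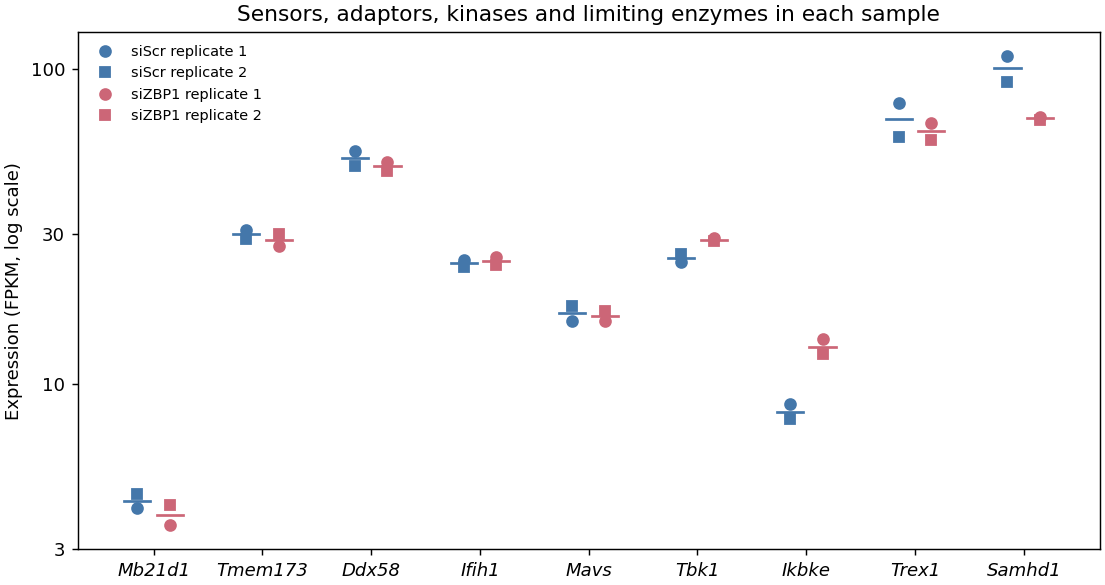
Expression of the 9 genes in each sample, in FPKM on a log axis; circles are replicate 1, squares replicate 2 and bars group means. The siZBP1 points of *Ikbke* (12.5 and 13.9 FPKM) sit above both siScr points (7.72 and 8.64 FPKM) and those of *Samhd1* (69.1 and 70.7 FPKM) below (91.4 and 110.4 FPKM), while for 6 genes the groups overlap.

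To ask whether depletion of one sensor went along with changes in the others, siZBP1 was compared with siScr cells. The transcripts of the DNA and RNA sensors and of both adaptors did not pass the test. *Ikbke* rose and *Samhd1* fell, and *Tbk1* was just short of the threshold. By limma on log2(FPKM + 1), with Benjamini-Hochberg adjusted p-values over all tested genes, 1 of 9 members was lower and 1 of 9 higher, against 14.8% and 13.5% of all tested genes. These shares are no larger than the background. The median absolute log2 fold change of the members was 0.12, and that of all tested genes was 0.18. By the 1.5-fold criterion of the study, 1 member was higher (background 4.24%) and 0 were lower (background 8.73%). The groups did not overlap for 3 of 9 members, against 68.4% of all tested genes. For 1 gene in 2 against 2 samples, the smallest two-sided p that exact permutation can give is 0.333, so the adjusted p-values rest on the variance that limma shares between genes.

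**Figure D2:**
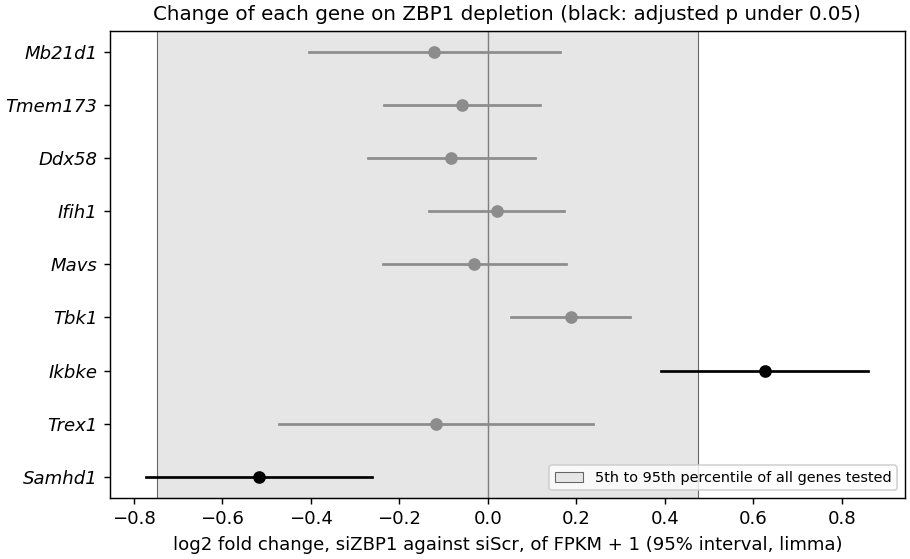
The log2 fold change of each gene, siZBP1 against siScr on the log2(FPKM + 1) scale, with its 95% interval from limma; black marks an adjusted p under 0.05 and the shaded band spans the 5th to 95th percentile of all tested genes (-0.75 to 0.47). *Ikbke* at 0.63 lies outside the band, *Samhd1* at -0.52 lies inside it, and the other 7 lie between -0.12 and 0.19.

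The DNA arm was represented by cGAS and STING. *Mb21d1*, the DNA sensor, was at 4.04 and 4.49 FPKM in siScr and at 3.56 and 4.13 FPKM in siZBP1 cells. The groups overlapped, with a log2 fold change of -0.12 (95% interval -0.40 to 0.16, limma adjusted p = 0.452). *Tmem173*, the adaptor that binds cGAMP, was at 30.9 and 28.9 FPKM against 27.4 and 30.01 FPKM. Here too the samples were interleaved, and the log2 fold change was -0.06 (95% interval -0.23 to 0.12, limma adjusted p = 0.564). The interval was wider for the cGAS transcript, the lowest of the 9, and both intervals hold changes of either sign.

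None of the 3 genes of the RNA arm passed the test either. *Ddx58*, which recognises short RNA with a 5′ triphosphate, was at 55.2 and 49.4 FPKM in siScr and at 50.9 and 47.7 FPKM in siZBP1 cells. Its log2 fold change was -0.08 (95% interval -0.27 to 0.11, limma adjusted p = 0.440). *Ifih1*, which recognises long double-stranded RNA, was at 24.9 and 23.6 FPKM against 25.3 and 23.8 FPKM. The groups overlapped almost fully, with a log2 fold change of 0.02 (95% interval -0.13 to 0.17, limma adjusted p = 0.824). *Mavs*, the adaptor of both sensors, was at 15.9 and 17.8 FPKM against 15.8 and 17.0 FPKM. In both groups replicate 2 had the higher *Mavs* value, and the log2 fold change was -0.03 (95% interval -0.24 to 0.18, limma adjusted p = 0.805).

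The kinases were both higher in every siZBP1 sample, but only *Ikbke* passed the test. *Ikbke* occupies bases 131254343 to 131279606 of chromosome 1 (GRCm38, minus strand), where GENCODE M21 also annotates 2 antisense genes, *Gm28913* and *Gm28914*; reads of these cannot be told apart from those of *Ikbke* if strand was not used. It was at 8.64 and 7.72 FPKM in siScr and at 13.9 and 12.5 FPKM in siZBP1 cells, a 1.61-fold rise of the mean. The log2 fold change was 0.63 (95% interval 0.39 to 0.86, limma adjusted p = 0.0123). Leaving out any 1 of the 4 samples ended this call, with log2 fold changes of 0.55 to 0.70 and adjusted p-values of 0.0517 to 0.118.

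*Tbk1*, the constitutive partner of IKKε, was at 24.5 and 25.8 FPKM in siScr and at 29.2 and 28.4 FPKM in siZBP1 cells. The groups did not overlap, and the ratio of the means was 1.14. The log2 fold change of 0.19 had a 95% interval of 0.053 to 0.32 and an adjusted p of 0.0557 by limma. It passed when the filter was raised to a mean of 5 FPKM (limma adjusted p = 0.0442), a setting that tests fewer genes.

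The enzymes that limit ligands differed from each other. *Samhd1* lies on chromosome 2 from 157097533 to 157135265 on the minus strand. It was at 110.4 and 91.4 FPKM in siScr and at 70.7 and 69.1 FPKM in siZBP1 cells, and the groups did not overlap. The mean was 1.44-fold lower, with a log2 fold change of -0.52 (95% interval -0.77 to -0.26, limma adjusted p = 0.0229). The siScr samples were far apart (SD 13.4 FPKM), whereas the siZBP1 samples were close together (SD 1.09 FPKM). The call ended without siZBP1 replicate 1 or replicate 2, with log2 fold changes of -0.53 and -0.50. It held without siScr replicate 1 or replicate 2, with log2 fold changes of -0.38 and -0.65.

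*Trex1* was at 78.1 and 61.0 FPKM in siScr and at 67.6 and 59.8 FPKM in siZBP1 cells. Its groups overlapped and its interval was the widest of the 9, from -0.47 to 0.24 around a log2 fold change of -0.12 (limma adjusted p = 0.566). The whole of *Trex1*, on chromosome 9 from 109057933 to 109059734, lies within *Atrip* on the same strand, so how reads were divided between them is uncertain. *Atrip* was at 4.68 and 4.61 FPKM in siScr and at 5.42 and 4.68 FPKM in siZBP1 cells, far below *Trex1*.

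Ratios within a sample show how a pair of members moved against each other, independently of the scaling of the sample. They were taken for both kinases, both RNA sensors, both enzymes that limit ligands, and 2 pairs of a sensor and an adaptor. The ratio of *Ikbke* to *Tbk1* was 0.353 and 0.299 in siScr and 0.476 and 0.438 in siZBP1 samples. Relative to its partner, the inducible kinase was thus higher in both siZBP1 samples, by 1.40 times in the mean. The ratio of *Samhd1* to *Trex1* was 1.41 and 1.498 in siScr and 1.04 and 1.16 in siZBP1 samples, so that these enzymes were nearly level after depletion. The ratio of *Ifih1* to *Ddx58* was 0.451 and 0.477 against 0.498 and 0.50. For these 3 ratios the groups did not overlap and the exact permutation test gave a two-sided p of 0.333, the smallest it can give. For *Mb21d1* to *Tmem173* (means 0.143 and 0.134) and *Mavs* to *Ddx58* (means 0.324 and 0.334) the groups overlapped. These 5 pairs were chosen with the values known.

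**Figure D3:**
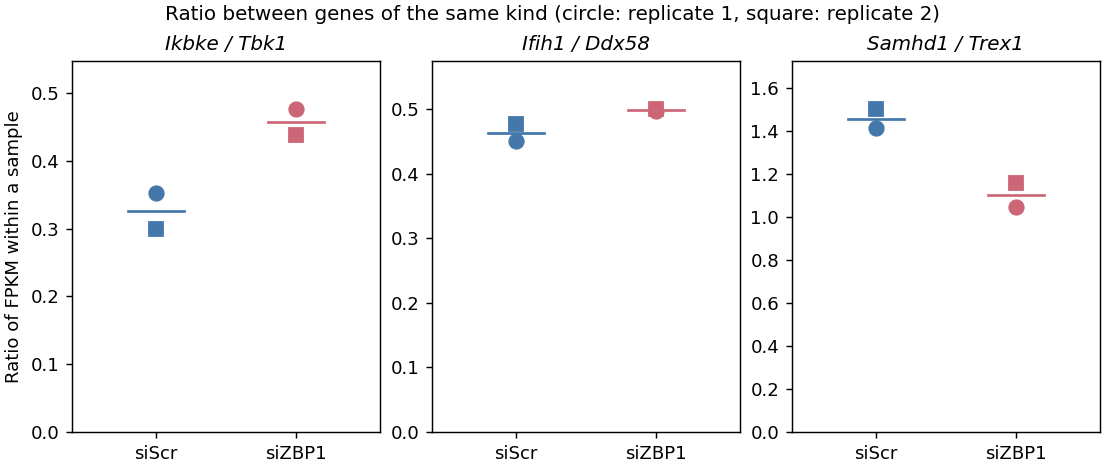
Ratio of FPKM within each sample for the 3 pairs of genes of the same kind, on linear axes from 0; circles are replicate 1, squares replicate 2 and bars group means. The *Ikbke* to *Tbk1* ratio was higher in siZBP1 samples (means 0.326 and 0.457), the *Samhd1* to *Trex1* ratio lower (1.46 and 1.10), and the *Ifih1* to *Ddx58* ratio differed least of these 3 (0.464 and 0.499).

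The other genes of these pathways were described by 6 lists, together 133 genes, of which 121 were tested. By limma 15 were lower (12.4%) and 19 were higher (15.7%), close to the shares of all tested genes, and the median log2 fold change was -0.0010. Without siZBP1 replicate 1 or 2, 0 of the 121 were called by limma in either direction, without siScr replicate 1, 4 were lower and 2 higher, and without siScr replicate 2, 21 were lower and 9 higher.

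Among 23 other sensors of nucleic acids, 2 were lower, 4 higher and 17 not called. *Oasl1*, which in mice restrains translation of IRF7, fell from 9.93 and 7.07 to 4.15 and 4.24 FPKM, a log2 fold change of -0.85 (limma adjusted p = 0.0234). *Oas3*, which makes the messenger 2-5A on double-stranded RNA, fell from 67.2 and 57.6 to 47.2 and 48.0 FPKM (log2 fold change -0.38). *Ddx3x*, an RNA helicase that binds MAVS, rose by 0.23 on the log2 scale. Of the other higher genes, 2 were named after their values were seen. These were *Dhx58* (LGP2, a RIG-I-like receptor without signaling domains), at 28.9 and 27.6 against 33.5 and 32.3 FPKM, and *Oas2*, with log2 fold changes of 0.21 and 0.18. Neither *Ddx58* nor *Ifih1* followed *Dhx58* past the threshold, a difference that was not itself tested. *Ifi204*, a DNA-binding sensor of the HIN-200 family, was abundant at 116.6 and 102.1 against 96.4 and 94.2 FPKM and was not called (adjusted p = 0.119). *Aim2* was at 12.4 and 13.2 against 16.4 and 14.8 FPKM and was not called either (adjusted p = 0.0605).

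Of 19 tested regulators of RIG-I, MDA5 and MAVS, 2 were lower and 2 were higher. *Tomm70a*, a mitochondrial import receptor that binds MAVS, fell from 33.3 and 30.5 to 24.7 and 24.7 FPKM (log2 fold change -0.36, limma adjusted p = 0.0177). *Itch*, a ubiquitin ligase that marks MAVS for degradation, fell by 0.22 on the log2 scale. *Riok3*, a kinase that acts on MDA5, and *Fis1*, a mitochondrial fission factor, rose by 0.27 and 0.26. *Trim25*, the ubiquitin ligase of RIG-I, was at 42.2 and 39.0 against 44.0 and 43.5 FPKM and was not called (adjusted p = 0.214), and *Trim31* was listed at 0.

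Of 23 tested regulators of cGAS and STING, 5 were lower and 3 were higher. *Slc19a1*, a folate carrier that also imports cGAMP, fell from 9.29 and 7.56 to 4.16 and 4.60 FPKM, a 1.92-fold drop (log2 fold change -0.80, limma adjusted p = 0.0136). *Lrrc8c* and *Lrrc8a*, subunits of the volume-regulated channel that passes cGAMP, fell by 0.35 and 0.33 on the log2 scale. *Banf1*, which competes with cGAS for DNA, fell from 71.4 and 69.3 to 52.4 and 52.9 FPKM (log2 fold change -0.41, limma adjusted p = 0.00610). The fifth lower gene was *Sqstm1*, an autophagy receptor. Of the higher genes, *Rnf5* and *Trim56* encode ubiquitin ligases and each rose by 0.31 on the log2 scale (named, like *Sqstm1*, after their values were seen). *Enpp1*, which breaks down cGAMP outside the cell, was at 3.90 and 5.65 against 5.72 and 5.91 FPKM and was not called.

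Around the kinases, 4 of 19 genes were lower and 3 higher. The largest change of all pathway genes was that of *Irf7*, the interferon-inducible factor that TBK1 and IKKε phosphorylate. It fell from 178.5 and 130.1 to 65.1 and 69.1 FPKM, a 2.30-fold drop (log2 fold change -1.17, 95% interval -1.59 to -0.76, limma adjusted p = 0.0107). *Irf3*, the constitutive factor, was at 14.3 and 14.1 against 15.6 and 14.8 FPKM and was not called (log2 fold change 0.09, adjusted p = 0.301). *Ikbkg* (NEMO), the regulatory subunit of the canonical IKK complex, fell from 15.0 and 13.8 to 9.82 and 10.2 FPKM (log2 fold change -0.48), and *Chuk* and *Irf5* fell by 0.23 and 0.19. *Traf3*, which links MAVS to the kinases, rose from 7.70 and 8.73 to 11.1 and 11.5 FPKM (log2 fold change 0.42, limma adjusted p = 0.0254). *Dtx4*, a ubiquitin ligase that promotes loss of TBK1, rose from 12.6 and 14.5 to 18.4 and 19.97 FPKM (log2 fold change 0.48, limma adjusted p = 0.0216). *Nfkb1* rose by 0.29. The scaffolds *Tank*, *Azi2* and *Tbkbp1* were not called, with log2 fold changes from -0.10 to 0.10.

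Of 15 tested nucleases and other enzymes of nucleic acid clearance, 1 was lower and 4 were higher. *Adar*, which edits double-stranded RNA, fell from 29.7 and 28.6 to 24.0 and 23.2 FPKM (log2 fold change -0.29, limma adjusted p = 0.0183). Of the other genes of this list whose loss causes the same human disease as that of *Trex1* and *Samhd1*, *Rnaseh2a*, *Rnaseh2b* and *Rnaseh2c* had log2 fold changes of -0.04, -0.11 and 0.37 and were not called. *Apobec3*, a DNA cytidine deaminase, rose from 18.04 and 19.8 to 25.2 and 25.6 FPKM (log2 fold change 0.41). *Dnase2a*, the lysosomal DNase, and *Skiv2l*, an RNA helicase of the exosome, rose by 0.24 and 0.21, and *Pld4*, a lysosomal exonuclease, by 0.16.

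At the end of the pathway, the list of interferons, their receptors and response genes had 22 tested genes, none of them an interferon. Of these, 1 was lower and 3 were higher. *Ifnb1*, the interferon first induced by IRF3, was listed at 0.334 and 0 FPKM in siScr and at 0.152 and 0.0948 FPKM in siZBP1 samples, and 3 interferon-α genes were listed at 0. *Ifit1*, which binds foreign RNA, fell from 87.8 and 72.4 to 58.5 and 58.8 FPKM (log2 fold change -0.44, limma adjusted p = 0.0356). *Isg15*, *Ifit2* and *Ifit3* had log2 fold changes from -0.38 to -0.32 and adjusted p-values from 0.0562 to 0.0830, short of the threshold. *Ccl5* had the lowest log2 fold change of the list (-0.84, limma adjusted p = 0.0617) and was not called either. It was at 47.0 and 28.4 FPKM in siScr and at 19.0 and 20.9 FPKM in siZBP1 samples. Of the siScr samples, replicate 1 exceeded replicate 2 for 21 of the 22 tested genes here, so the size of a fall depends on which is kept. The log2 fold change of *Ifit1* was -0.30 if siScr replicate 1 was dropped and -0.58 if siScr replicate 2 was. Dropping siZBP1 replicate 1 or 2 gave -0.43 or -0.44. *Cxcl10* rose from 19.6 and 17.7 to 24.2 and 23.8 FPKM (log2 fold change 0.35), and *Ifi27l2a* and *Ifnar1*, a subunit of the interferon receptor, rose by 0.22 and 0.20. *Ifit1* and *Oas3*, which fell, and *Cxcl10*, which rose, all hold the searched letters in their promoter window, as do *Ddx58* and *Ifih1*, which were not called. Matches thus occurred in genes of both directions and in genes that were not called.

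**Figure D4:**
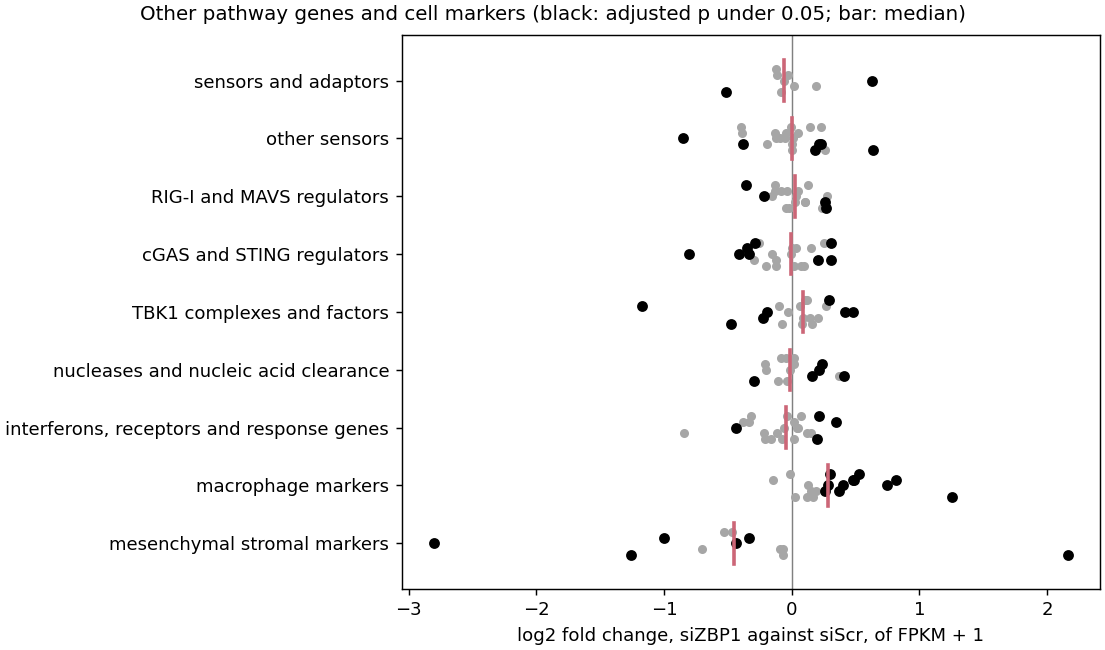
The log2 fold change, siZBP1 against siScr on the log2(FPKM + 1) scale, of the 9 members, of each tested gene of the 6 pathway lists and of the macrophage and stromal markers; black points have an adjusted p under 0.05 by limma, grey points do not, and red bars are list medians. The pathway medians lie between -0.05 and 0.09, those of the members at -0.06, of the macrophage markers at 0.28 and of the stromal markers at -0.45.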

How the data were processed

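The authors prepared TruSeq RNA libraries, mapped reads with Tophat to the mouse mm10 genome and deposited FPKM per gene and sample, extracted with HTSeq per the methods; the submitters' processing notes also name Cufflinks. The gene annotation, strand setting, read numbers and filters are not given in the sources used here. Deposited group means were not used. The samples comprised 2 siScr and 2 siZBP1 replicates.

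Genes averaging 1 FPKM or more were tested on log2(FPKM + 1), two-sided, by limma 3.58.1 under R 4.3.3, using its variance trend, with Benjamini-Hochberg adjustment and a threshold of 0.05. The pseudocount understates changes of low genes. Ratios of group means used the study's 1.5-fold limit. The script was tested on simulated data. Relative depth was taken from the most frequent ratio of values under 0.3 FPKM between samples. Positions came from GENCODE M21 (GRCm38), of the same build as mm10, and promoters from RefSeq. Python 3.11.15, scipy 1.17.1 and pandas 2.3.3 were used.

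Members and lists were chosen with earlier results of these data known. From each of the 6 pathway lists, up to 4 called genes with separate groups and the largest change were named, with *Ifnb1*; other genes were named after their values were seen. Some genes of the lists enter the counts but are not reported here by name. Of the listed genes, *Rnaset2a* was not found in the table. The 12 alternatives covered pseudocount, filter, scaling, variance trend, replicate block and each sample left out.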

Additional observations from a re-analysis of the deposited data

How the results depend on the processing

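With 2 samples per group, the limma calls rest on every sample. Where 1 sample was left out, its lone partner was taken to vary as the other group does, the genes tested were kept, and fewer samples are part of that setting. With a sample left out, limma called 23 to 1297 genes lower and 22 to 1019 higher, 0 to 1 members lower and 0 members higher, and 0 to 21 and 0 to 9 pathway list genes lower and higher. The log2 fold changes then ranged from 0.55 to 0.70 for *Ikbke*, from -0.65 to -0.38 for *Samhd1*, from -0.12 to 0.0058 for *Tmem173*, from -0.021 to 0.062 for *Ifih1*, from -0.11 to 0.046 for *Mavs* and from -0.29 to 0.059 for *Trex1*, so that the last 4, none of them called, changed sign. With all samples, *Ikbke* and *Samhd1* stayed past the threshold under all 8 alternatives (limma adjusted p from 0.00790 to 0.0226 and from 0.0115 to 0.0438). *Tbk1* passed with a mean FPKM of at least 5 (log2 fold change 0.19), which made 2 members higher. Without a variance trend 9 pathway list genes were lower and 9 higher, and without a filter 12 were higher; the cause was not tested. Without a filter 2249 genes were lower and 1750 higher over 1.5-fold, with low genes included. With the replicate block, *Ikbke* and *Samhd1* had log2 fold changes of 0.63 and -0.52 and stayed past the threshold, and 1654 genes were lower and 1465 higher. The block ended the calls of *Itch*, *Fis1*, *Lrrc8c*, *Skiv2l*, *Ifi27l2a* and *Ifnar1* (limma adjusted p from 0.054 to 0.073) and gave 5 lower and 1 higher genes in the interferon list, 2 lower among the TBK1 factors and 1 each way among the RIG-I and MAVS regulators. Across 11959 genes, same-numbered replicates did not deviate together (r = -0.063). A correlation over all genes cannot show whether same-numbered replicates were paired. For the 22 tested genes of the interferon list, replicate 1 was the higher for 21 in siScr and for 15 in siZBP1 samples. The shares over all tested genes were 55% and 50.4%. Depth is unknown beyond its relative size, and no counting error could be given.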

Other observations

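Within the siScr group, replicate 1 had the higher value for 21 of 22 tested genes of the interferon list. The median log2 difference was 0.13, against 55.0% of all tested genes and a median of 0.017. The genes include *Isg15* (280.7 and 222.1 FPKM) and *Ccl5* (47.0 and 28.4 FPKM). Outside this list, *Irf7* was at 178.5 and 130.1 FPKM and *Zbp1* itself at 86.0 and 62.0 FPKM. Among the members, *Samhd1* (110.4 and 91.4 FPKM), *Trex1* (78.1 and 61.0 FPKM) and *Ddx58* (55.2 and 49.4 FPKM) were also higher in this replicate, whereas *Mavs*, *Tbk1* and *Mb21d1* were lower. In the siZBP1 group replicate 1 was the higher for 15 of the 22 genes (68.2%), with a median log2 difference of 0.015. For all tested genes the share was 50.4% and the median 0.00097. These genes are commonly regulated together and are not independent, this difference between replicates was noticed in the data, and its part in the comparison between groups was not tested.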
